A study of Mus musculus with 80 samples.

Results

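Expression of 40 genes of protein folding in the endoplasmic reticulum (ER), of ER degradation and of the integrated stress response was followed in mouse liver. They were taken by symbol from the deposited gene tables, which hold 18877 genes for one chemical and 17672 for the other, and all 40 were present in both. By role they are 11 chaperones and co-chaperones, 4 protein disulfide isomerases, 8 genes of ER-associated degradation, 5 sensors and transcription factors of the unfolded protein response, 8 genes of the Atf4 branch, and 4 genes of the translocon. The livers were from male B6C3F1 mice, a hybrid strain, that were 4 weeks old. Di(2-ethylhexyl) phthalate (DEHP), a plasticizer and peroxisome proliferator, was mixed into the diet at 0, 1500, 3000 or 6000 ppm over 7 days, with 4 mice per dose, and these livers date from 2013. Dichloroacetic acid (DCA), which blocks pyruvate dehydrogenase kinase, was dissolved in the water the mice drank, to 0, 1, 2 or 3.5 g/L, with 6 mice per dose, and these livers date from 1994. The length of the DCA exposure is not given in the sources used here. Each mouse gave a library from frozen liver of mixed lobes and a library from formalin-fixed, paraffin-embedded (FFPE) sections of specified lobes, 80 libraries in all.

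Secreted and membrane proteins enter the ER through the Sec61 translocon and fold there with the help of chaperones and disulfide isomerases. Hepatocytes, which secrete most plasma proteins, carry a large ER. Proteins that fail to fold are passed back to the cytosol for degradation. When unfolded proteins accumulate, the sensors Ern1 (Ire1), Eif2ak3 (Perk) and Atf6 raise transcription of chaperone and degradation genes, in part through the factor Xbp1. Eif2ak3 also phosphorylates the initiation factor eIF2 alpha, as other kinases do when amino acids are short, and translation of Atf4 then rises. Atf4 in turn drives Ddit3 (Chop), Trib3, Chac1, Asns and other genes.

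The stress-response motifs known for these pathways were searched for in the 250 bases before each start site, on both strands, in RefSeq promoters of build GRCm38.p6. Of the 40 genes 35 had an entry, in 37 windows, and Hyou1, Manf, Derl1, Atf6 and Sec61a1 had none. The ER stress element, which is CCAAT, then any 9 bases, then CCACG, was found in 9 of the 37 windows (24.3%) and in 37 of all 32851 promoters (0.113%). It was present for 6 of 9 chaperones, 1 of 4 disulfide isomerases and 2 of 8 windows of ER degradation genes, and for no matched sensor, Atf4-branch gene or translocon gene. The stretches that hold it are shown so that its spacing and both orientations can be read, and no level is compared by this match. Capitals mark the match, which Hsp90b1 has 2 times, and each stretch reads 5′ to 3′ on the strand of its gene.
Hspa5, chr2:34772020-34772048, plus strand: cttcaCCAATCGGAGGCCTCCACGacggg
Hsp90b1, chr10:86705633-86705661, minus strand: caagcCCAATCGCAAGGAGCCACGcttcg
Hsp90b1, chr10:86705528-86705556, minus strand: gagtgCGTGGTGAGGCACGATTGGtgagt
Calr, chr8:84847070-84847098, minus strand: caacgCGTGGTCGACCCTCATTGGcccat
Canx, chr11:50325795-50325823, minus strand: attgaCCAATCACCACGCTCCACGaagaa
Dnajc3, chr14:118937822-118937850, plus strand: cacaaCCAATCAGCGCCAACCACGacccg
Creld2, chr15:88819515-88819543, plus strand: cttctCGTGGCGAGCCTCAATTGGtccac
Pdia6, chr12:17266486-17266514, plus strand: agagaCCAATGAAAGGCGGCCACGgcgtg
Syvn1, chr19:6046527-6046555, plus strand: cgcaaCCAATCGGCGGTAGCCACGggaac
Derl3, chr10:75893237-75893265, plus strand: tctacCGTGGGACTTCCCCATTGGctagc

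The annotation places the Hspa5 stretch in an exon of Hspa5, and the other stretches listed with it in no annotated exon or intron. Hspa5 also held the only match among the 35 genes to a UPR element (TGACGTG, in 1.65% of all promoters), and it does not overlap the ER stress element. A shorter form of the ER stress element, ATTGG, then any 1 base, then CCACG, was found only for Herpud1 among the 35, and in 0.0304% of all promoters. The amino acid response element TGATG, then any 1 base, then AA, was found in 4 of 37 member windows (10.8%) and in 3.45% of all promoters. Herpud1, which encodes an ER membrane scaffold of the degradation machinery, held both, and its whole window is shown with both matches in capitals. They do not overlap, and the window lies in an intron of the predicted gene Gm15890. Its last bases, in small letters, are CCAAT, 9 further bases and CCAC. The window ends there, so whether a full ER stress element is completed beyond it was not searched.
Herpud1, chr8:94386179-94386428, plus strand: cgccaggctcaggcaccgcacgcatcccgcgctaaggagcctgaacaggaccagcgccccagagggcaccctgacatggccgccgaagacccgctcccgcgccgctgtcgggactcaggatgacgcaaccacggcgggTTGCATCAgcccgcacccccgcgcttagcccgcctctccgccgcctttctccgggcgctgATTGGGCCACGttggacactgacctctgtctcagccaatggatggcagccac

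The other matches to the amino acid response element belonged to 3 genes of the Atf4 branch, and the match is again in capitals. The Atf3 stretch lies in an intron of a longer Atf3 transcript and the Asns stretch in an exon of Asns, while the Chac1 stretch lies outside annotated genes. A match is a description of the letters and not evidence of binding.
Atf3, chr1:191183425-191183454, minus strand: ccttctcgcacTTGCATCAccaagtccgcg
Chac1, chr2:119351038-119351067, plus strand: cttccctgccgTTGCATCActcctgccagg
Asns, chr6:7693214-7693243, minus strand: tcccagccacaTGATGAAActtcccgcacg

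Library totals had a median of 22009498.5 counts (16582951 to 29550616) for DEHP frozen libraries, 16405449.5 (11673034 to 18866106) for DEHP FFPE, 14686415 (3067666 to 16890024) for DCA frozen and 504138.5 (109292 to 8434613) for DCA FFPE. All 40 members had counts in every DEHP library and 38 to 40 in the DCA frozen libraries, but between 9 and 37 in the DCA FFPE libraries. In DCA FFPE a median of 56.5% of counts came from the ribosomal gene Rn45s. The controls and 3 libraries at 1 g/L were sequenced in a run of totals from 1385869 up, the others in a run of totals up to 653006, so dose, run and depth cannot be told apart there. In the other sets too, sequencing runs were spread unevenly over the doses. At 2 g/L 3 DCA frozen libraries were shallow, and at 3000 ppm the frozen and FFPE libraries of DEHP animals 35A and 67C matched each other poorly (r 0.0659 and 0.0855 across genes). The labels identify animals, and p-values measure the spread between the animals of 1 study. In bulk liver, fewer cells of a type and less RNA per cell cannot be told apart.

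In control livers the chaperones were among the most abundant transcripts per length. Hspa5, which encodes the main ER Hsp70 chaperone (BiP), had 675 FPKM ± 514 (SD, n = 4) in DEHP frozen controls and 712.3 ± 193 (SD, n = 6) in DCA frozen controls, the highest of the 40 in both. FPKM are fragments scaled for transcript length and sequencing depth. Hsp90b1 (Grp94) followed at 561 FPKM ± 228 and 575 ± 136. Calr at 431 and 557 FPKM and P4hb, a disulfide isomerase, at 390 and 547 FPKM came next in both sets. The factor Creb3l3, a liver-enriched ER membrane protein that is cleaved to enter the nucleus, had 70.1 FPKM ± 19.6 and 95.5 ± 8.95. Xbp1 had 78.9 and 108.5 FPKM and Atf4 45.1 and 33.9 FPKM, within the spread of several neighbours in the order. The targets of Atf4 were low: Asns had 2.49 and 2.97 FPKM and Chac1 1.07 and 1.12 FPKM. The lowest members were Trib3 in DEHP controls at 0.580 FPKM and Atf3 in DCA controls at 0.467 FPKM.

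The 4 DEHP control animals differed widely in these genes. The highest control was a median of 2.28 times the lowest over the 40 genes (1.20 to 19.1) in frozen liver and 2.26 times (1.27 to 21.03) in FFPE. In CPM, counts scaled to a common library size, Hspa5 in frozen controls stood at 509 in animal 32A, 3646 in 45C, 1405 in 63A and 1392 in 75A. In FFPE liver of the same animals it stood at 276, 1943, 696 and 727. Animal 45C was the highest and 32A the lowest in both. Animal 45C was the highest control for 34 of 40 genes in frozen liver and 31 in FFPE, and 32A the lowest for 32 and 30. The same control animal was highest in both preparations for 36 of 40 genes, and the same animal for 22, 17 and 29 genes within the groups at 1500, 3000 and 6000 ppm. These spreads, ranks and agreements were not worked out over all genes. Whether the 40 genes differ from others in them was therefore not tested. Syvn1, the ubiquitin ligase of ER degradation (Hrd1), ranged from 20.7 CPM in 32A to 208.9 in 45C in frozen liver and from 51.0 to 702.2 in FFPE. Derl3, a channel protein of the same pathway, ranged from 0.985 to 18.5 CPM and from 2.35 to 26.01 CPM. In animal 45C the summed B and plasma cell markers (134.6 CPM) and Kupffer cell markers (227.8 CPM) lay within the range of the other frozen controls. Nearly all of the B and plasma cell sum was Sdc1, with 3574 counts in 45C against 27 for Igj and 9 for Cd79b. That sum therefore describes Sdc1 and not the list. This animal was the highest frozen control for bile duct markers (45.99 CPM, lowest control 30.6) and red blood cell markers (254 CPM, lowest 178). The DCA frozen controls were closer, with a median ratio of 1.64 (1.15 to 6.45).

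**Figure D1:**
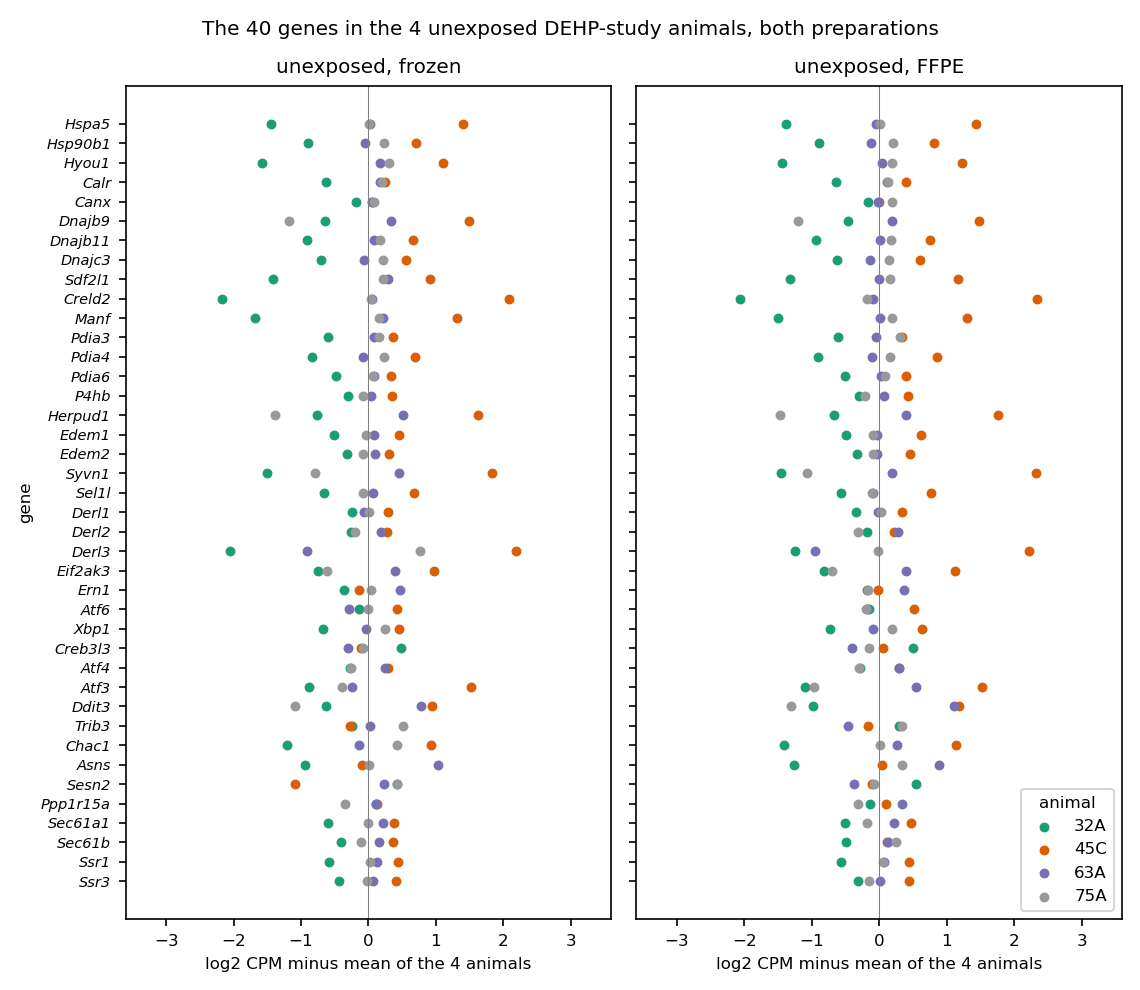
Log2 CPM of the 40 genes in each of the 4 DEHP control animals minus the mean of the 4, in frozen and in FFPE liver. Animal 45C lies above the others for most genes and 32A below, in both preparations.

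In frozen liver of DEHP-fed mice, some members of folding and degradation were called lower and Creb3l3 higher, and with the sequencing run as a term only the call of Creb3l3 held. At 6000 ppm 10 of 40 members fell (25%, against 4.72% of all 13802 genes tested) and 1 rose (2.5%, against 7.05%), by edgeR's quasi-likelihood test with Benjamini-Hochberg adjusted p under 0.05 over all genes. The median log2 fold change of the 40 was -0.56, and of all genes -0.03. All 11 chaperones had fold changes below 0 and 3 of them fell, as did 2 of 4 disulfide isomerases, 2 of 8 degradation genes, 2 of 5 sensors and factors and 1 of 4 translocon genes. No gene of the Atf4 branch passed the test. All 4 libraries at 6000 ppm lay below every control for 3 of 40 members, against 8.04% of all genes tested. They lay above every control for 0 members, against 8.14%. Absence of overlap was thus no more frequent among the members than among all genes.

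Sdf2l1 (chr16:17130138-17132383, minus strand), a cofactor of ER J-domain proteins, stood at 13.2, 66.0, 42.8 and 41.0 CPM in the frozen controls and at 20.2, 9.93, 15 and 7.55 CPM at 6000 ppm. The control 32A lay among the treated animals, and the other 3 controls lay above all of them. Its log2 fold change was -1.63 ± 0.43 (SE, edgeR adjusted p 0.0211). The J-domain co-chaperones Dnajc3 (-0.81 ± 0.22, adjusted p 0.0261) and Dnajb11 (-0.88 ± 0.25, adjusted p 0.0320) fell too. Hspa5 stood at 1048, 938.5, 804 and 717 CPM at 6000 ppm, above control 32A and below the other controls. A log2 fold change of -0.99 ± 0.43 did not pass the test (edgeR adjusted p 0.159). Creb3l3 (chr10:81084324-81098874, minus strand) was the only member that rose. It stood at 219.5, 144.9, 126.8 and 148.6 CPM in controls and at 218, 267.5, 239 and 276.6 CPM at 6000 ppm, where 1 treated library lay just below the highest control. Its log2 fold change was 0.65 ± 0.15 (edgeR adjusted p 0.0108).

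Among the isomerases, which form and rearrange disulfide bonds, Pdia6 stood at 223.5, 391, 329 and 327 CPM in controls and at 244.6, 196.5, 192.5 and 170.5 CPM at 6000 ppm, with 1 control inside the treated range. Its log2 fold change was -0.66 ± 0.19 (edgeR adjusted p 0.0287), and that of P4hb, whose treated libraries all lay below the controls, -0.49 ± 0.15 (adjusted p 0.0497). The mannosidase-like gene Edem2, which marks glycoproteins for degradation, stood at 26.7, 41.4, 35.8 and 31.5 CPM in controls and at 24.2, 23.4, 22.4 and 17.96 CPM at 6000 ppm. The groups did not overlap, and it fell by 0.62 on the log2 scale (SE 0.15, edgeR adjusted p 0.0108). Its relative Edem1 changed by -0.59 ± 0.15 (adjusted p 0.0188). Herpud1 stood at 151, 794, 365.5 and 98.3 CPM in controls and at 113, 115, 138 and 135 CPM at 6000 ppm, so that controls lay on both sides of the treated libraries. Its log2 fold change was -1.49 ± 0.48 (edgeR adjusted p 0.0546), and that of Derl3 -2.32 ± 0.81 (adjusted p 0.0770), and neither passed the test.

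The sensor Ern1, whose RNase splices Xbp1 mRNA, stood at 47.0, 54.9, 84.1 and 62.1 CPM in controls and at 47.4, 29.5, 32.2 and 26.9 CPM at 6000 ppm. The highest treated library lay just above the lowest control, and the log2 fold change was -0.87 ± 0.22 (edgeR adjusted p 0.0177). Atf6 fell without overlap between the groups (-0.48 ± 0.13, adjusted p 0.0229). Xbp1 stood at 85.4, 185, 133 and 161 CPM in controls and at 114, 103, 98.6 and 58.3 CPM at 6000 ppm, overlapping, with a log2 fold change of -0.59 ± 0.25 (edgeR adjusted p 0.150). Sec61a1, the channel subunit of the translocon, stood at 119.7, 237, 211 and 181.5 CPM in controls and at 124, 137, 109 and 132 CPM at 6000 ppm. Control 32A lay among the treated libraries, and the log2 fold change was -0.58 ± 0.18 (edgeR adjusted p 0.0406).

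In the Atf4 branch the values scattered. Atf4 itself stood at 63.0, 92.8, 90.5 and 63.5 CPM in controls and at 51.7, 65.5, 45.5 and 82.0 CPM at 6000 ppm, with a log2 fold change of -0.34 ± 0.19 (edgeR adjusted p 0.286). Ddit3, which encodes the factor Chop, stood at 3.15, 9.39, 8.37 and 2.30 CPM in controls and at 1.93, 2.85, 2.32 and 3.98 CPM. Its log2 fold change was -1.08 ± 0.36 (edgeR adjusted p 0.0611). Trib3, a pseudokinase, stood at 0.985, 0.965, 1.19 and 1.66 CPM in controls and at 1.79, 1.41, 4.52 and 3.21 CPM, 3 of the 4 above every control, with a log2 fold change of 1.19 ± 0.50 (edgeR adjusted p 0.142). Asns, asparagine synthetase, stood at 2.22, 3.97, 8.68 and 4.28 CPM in controls and at 1.75, 11.2, 3.75 and 8.32 CPM. The groups of Atf4, Ddit3 and Asns overlapped, and the log2 fold change of Asns was 0.38 ± 0.63 (edgeR adjusted p 0.768).

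Calls were made at each dose of DEHP in frozen liver. At 1500 ppm 9 of 40 members were called (22.5%, against 6.48% of all genes), 8 lower (20%, against 2.14%) and 1 higher (2.5%, against 4.34%). At 3000 ppm 7 were called (17.5%, against 14.7%), 6 lower (15%, against 6.48%) and 1 higher (2.5%, against 8.17%). A linear trend with dose was called for none (2.61% of all genes), while 18 had an unadjusted p under 0.05 in edgeR and DESeq2 also called none. Sdf2l1 had log2 fold changes of -1.66, -1.34 and -1.63 at 1500, 3000 and 6000 ppm, Edem2 of -0.66, -0.75 and -0.62, and Ern1 of -0.83, -1.04 and -0.87. Creb3l3 had 0.59, 0.60 and 0.65. These genes passed the test at all 3 doses. Hsp90b1 (-0.95) and Pdia4 (-0.86) passed only at 1500 ppm, and Derl3 passed at 1500 ppm (-3.54) and 3000 ppm (-2.88); whether doses differ from each other was not tested. The counts moved with single animals. For fits without an animal or with another setting, here and below, calls over all genes were not counted. Whether the members moved more than other genes was therefore not tested. At 6000 ppm 25 members were called without control 32A, 3 without control 45C, 5 without 63A and 7 without 75A, and 2, 2 and 5 without treated animals 44A, 8C and 64C. Leaving out 32A gave 22 calls at 1500 ppm and 17 at 3000 ppm, and leaving out 45C gave 0 and 3. With the sequencing run as a term 1 member, Creb3l3, stayed called at each dose.

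**Figure D2:**
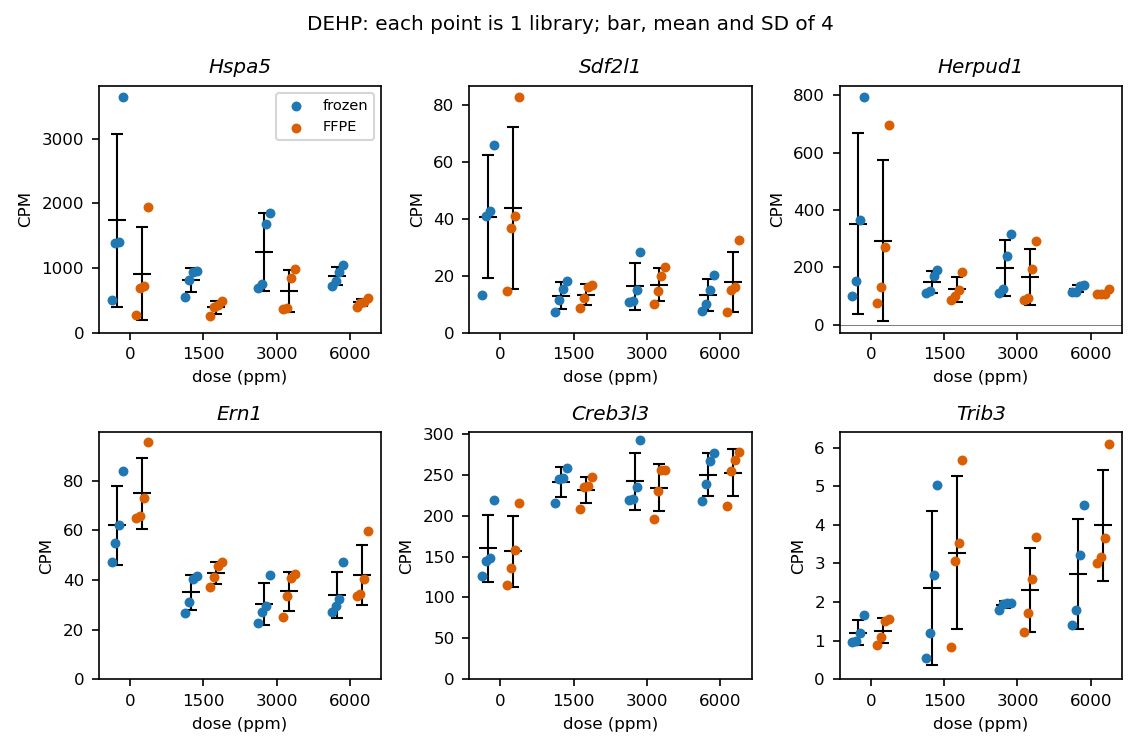
CPM of Hspa5, Sdf2l1, Herpud1, Ern1, Creb3l3 and Trib3 in each DEHP library by dose in ppm, frozen in blue and FFPE in orange, with the mean ± SD of 4. The control spread of Hspa5 and Herpud1 exceeds that of the 6000 ppm group, and Creb3l3 lies higher at all 3 doses.

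FFPE liver of the same DEHP animals gave a like set of values. At 6000 ppm 4 members fell (10%, against 4.43% of all 13581 genes tested) and 2 rose (5%, against 7.94%). The median log2 fold change of the 40 was -0.47, and of all genes -0.01. Ern1 stood at 65.1, 73.0, 95.8 and 65.7 CPM in FFPE controls and at 59.8, 40.2, 34.3 and 33.7 CPM at 6000 ppm, without overlap (log2 fold change -0.84 ± 0.20, edgeR adjusted p 0.0102). Dnajc3 stood at 218, 513.6, 306 and 373 CPM in FFPE controls and at 223, 179.5, 194.5 and 201 CPM, 1 of them above the lowest control (-0.82 ± 0.22, edgeR adjusted p 0.0194). Pdia6 (-0.63 ± 0.18) and Atf6 (-0.49 ± 0.14) fell as well. All 4 libraries at 6000 ppm lay below every control for 2 of 40 members, against 5.99% of all genes tested. They lay above every control for 1 member, against 8.6% of all genes. Trib3 stood at 1.499, 1.09, 0.885 and 1.55 CPM in FFPE controls and at 3.18, 3.03, 6.11 and 3.66 CPM, all above the controls, and the log2 fold change in FFPE was 1.67 ± 0.46 (edgeR adjusted p 0.0233). Creb3l3 rose by 0.69 ± 0.16 on the log2 scale (edgeR adjusted p 0.0107), from 216, 158, 115 and 136.5 CPM to 254, 277.8, 267.9 and 212 CPM, with 1 treated library below the highest control.

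The remaining genes named by role did not pass the test in FFPE at 6000 ppm. Hspa5 stood at 529, 455, 477 and 402.5 CPM there, above control 32A and below the other controls (log2 fold change -0.97 ± 0.43, edgeR adjusted p 0.162). Herpud1 stood at 129.7, 698, 271 and 74.3 CPM in FFPE controls and at 108, 106, 123 and 106.5 CPM at 6000 ppm (-1.41 ± 0.52, edgeR adjusted p 0.0881), between the lowest control and the others. Log2 fold changes were -0.49 for Xbp1, -0.42 for Atf4, -1.26 for Ddit3 and 0.58 for Asns. At 1500 ppm 8 members were called (20%, against 5.86%), 7 lower (17.5%, against 1.31%) and 1 higher (2.5%, against 4.55%). At 3000 ppm 5 were called (12.5%, against 9.39%), 4 lower (10%, against 3.24%) and 1 higher (2.5%, against 6.15%). Ern1 and Creb3l3 passed at all 3 doses, and Derl3 at 1500 ppm (-3.92) and 3000 ppm (-2.75). At 6000 ppm 19 members were called without control 32A, 2 without 45C, 3 without treated animal 44A and 2 without 64C. No member had a called trend in FFPE (3.59% of all genes), with 13 at an unadjusted p under 0.05 in edgeR, and DESeq2 called 1. The difference between the 6000 ppm effect in FFPE and in frozen liver, tested with the animal as block, was called for 0 of 40 members (0% of 14065 genes). No member had an unadjusted p under 0.05 for it in edgeR. The differences ran from -0.11 for Eif2ak3 to 0.55 for Trib3 on the log2 scale, and the latter had an SE of 0.50.

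In frozen liver of DCA-treated mice, members of every role fell at the top dose. At 3.5 g/L 25 of 40 members fell (62.5%, against 21.1% of all 13089 genes tested) and 3 rose (7.5%, against 21.9%). The median log2 fold change of the 40 was -0.47, and of all genes -0.02. Of the chaperones 10 of 11 fell, of the disulfide isomerases 4 of 4, of the degradation genes 5 of 8 and of the translocon genes 2 of 4. Of the sensors and factors 2 fell and 1 rose, and of the Atf4 branch 2 fell and 2 rose. All 6 libraries at 3.5 g/L lay below every control for 18 of 40 members, against 9.42% of all genes tested, and above every control for 3, against 11.3%. Controls and 3.5 g/L libraries were sequenced in different lanes, and lane and dose cannot be told apart.

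Hspa5 had a lowest, median and highest value of 1077, 1854 and 2617 CPM in DCA frozen controls and of 851, 995 and 1126 CPM at 3.5 g/L. Of the 6 treated libraries 5 lay below every control, and the log2 fold change was -0.87 ± 0.19 (edgeR adjusted p 0.000718). Sdf2l1 had 29.98, 46.9 and 64.4 CPM in controls and 6.02, 8.69 and 13.9 CPM at 3.5 g/L, without overlap (-2.41 ± 0.32, edgeR adjusted p 1.69e-06). The lectin chaperones that bind sugar chains of new glycoproteins fell as well, Calr by 0.88 and Canx by 0.47 on the log2 scale. The other chaperones that fell ran from -1.29 for Creld2 to -0.71 for Dnajb11. Dnajb9 at -0.20 was the chaperone that did not pass the test (edgeR adjusted p 0.337). Pdia6 had 319, 402 and 457 CPM in controls and 131, 179 and 212.5 CPM at 3.5 g/L, without overlap, and a log2 fold change of -1.13 ± 0.14 (edgeR adjusted p 5.53e-07). The other isomerases changed by -1.11 for Pdia4, -0.90 for Pdia3 and -0.59 for P4hb.

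In ER degradation, Herpud1 had 279, 404 and 666 CPM in DCA frozen controls and 79.3, 120 and 187 CPM at 3.5 g/L, with every treated library below every control (-1.76 ± 0.23, edgeR adjusted p 1.24e-06). It stood at 143, 176 and 263 CPM already at 1 g/L, also without overlap. Derl3 had 1.78, 6.72 and 11.5 CPM in controls and 0, 0.102 and 0.518 CPM at 3.5 g/L. Its summed counts over 6 libraries were 550, 128, 93 and 15 from the lowest to the highest dose. These sums are not scaled for depth, and library totals at 2 g/L went down to 3067666, so the 2 g/L sum is not comparable. The fitted log2 fold change of Derl3 at 3.5 g/L was -5.19 ± 0.78 (edgeR adjusted p 9.13e-06). The ligase Syvn1 (-1.34 ± 0.26) and its partner Sel1l (-0.80 ± 0.11) fell, whereas the derlins Derl1 and Derl2 at -0.07 and -0.02 did not pass the test. Exons of Syvn1 overlap those of Mrpl49 on the other strand by 91 bases, and the strand setting of the counting is not given.

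The sensor Eif2ak3 (-0.40 ± 0.13) fell at 3.5 g/L, and Ern1 (-0.17) and Atf6 (0.17) did not pass the test. Xbp1 had 166, 222 and 288 CPM in controls and 146, 165 and 184 CPM at 3.5 g/L, with 3 of 6 below every control (-0.45 ± 0.17, edgeR adjusted p 0.0330). Creb3l3 had 192.5, 215.7 and 239 CPM in controls and 245.6, 275.8 and 308 CPM at 3.5 g/L, without overlap (0.34 ± 0.09, edgeR adjusted p 0.00471). Sec61a1 had 246.9, 285.7 and 307.5 CPM in controls and 189, 215 and 232 CPM, all below the controls (-0.39 ± 0.09, edgeR adjusted p 0.000820). The small subunit Sec61b fell by 0.47 on the log2 scale, and the translocon-associated genes Ssr1 (-0.15) and Ssr3 (0.06) did not pass the test.

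The Atf4 branch moved in both directions under DCA. Atf3, a stress-induced repressor, had 0.343, 0.914 and 1.32 CPM in frozen controls and 4.04, 4.74 and 5.88 CPM at 3.5 g/L. All 6 treated libraries lay above every control, and the log2 fold change was 2.44 ± 0.26 (edgeR adjusted p 4.29e-08). Ppp1r15a, which encodes the phosphatase subunit that reverses eIF2 alpha phosphorylation, also rose without overlap (0.45 ± 0.12, adjusted p 0.00385). Chac1, a glutathione-degrading enzyme, had 0.660, 1.30 and 3.21 CPM in controls and 0.0679, 0.164 and 0.205 CPM at 3.5 g/L, without overlap. Its summed counts over 6 libraries were 149, 117, 48 and 13 by dose, not scaled for depth, and the 2 g/L group held shallow libraries. The log2 fold change of Chac1 was -3.46 ± 0.55 at 3.5 g/L (edgeR adjusted p 1.54e-05). Ddit3 had 2.02, 3.05 and 3.96 CPM in controls and 1.47, 1.53 and 1.88 CPM, without overlap (-0.92 ± 0.21, edgeR adjusted p 0.000862). Its exons share 68 bases with Mars on the other strand.

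Other Atf4-branch genes did not pass the test at 3.5 g/L of DCA. Atf4 had 38.1, 49.7 and 54.7 CPM in controls and 51.2, 56.6 and 58.9 CPM, with 4 of 6 above every control (0.21 ± 0.10, edgeR adjusted p 0.0950). Trib3 had 2.39, 2.79 and 4.53 CPM in controls and 1.83, 2.78 and 5.51 CPM at 3.5 g/L (0.06 ± 0.27), and Asns had 2.25, 4.91 and 11.8 CPM in controls and 4.01, 5.23 and 12.7 CPM (0.22 ± 0.36). Both overlapped over most of their range.

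**Figure D3:**
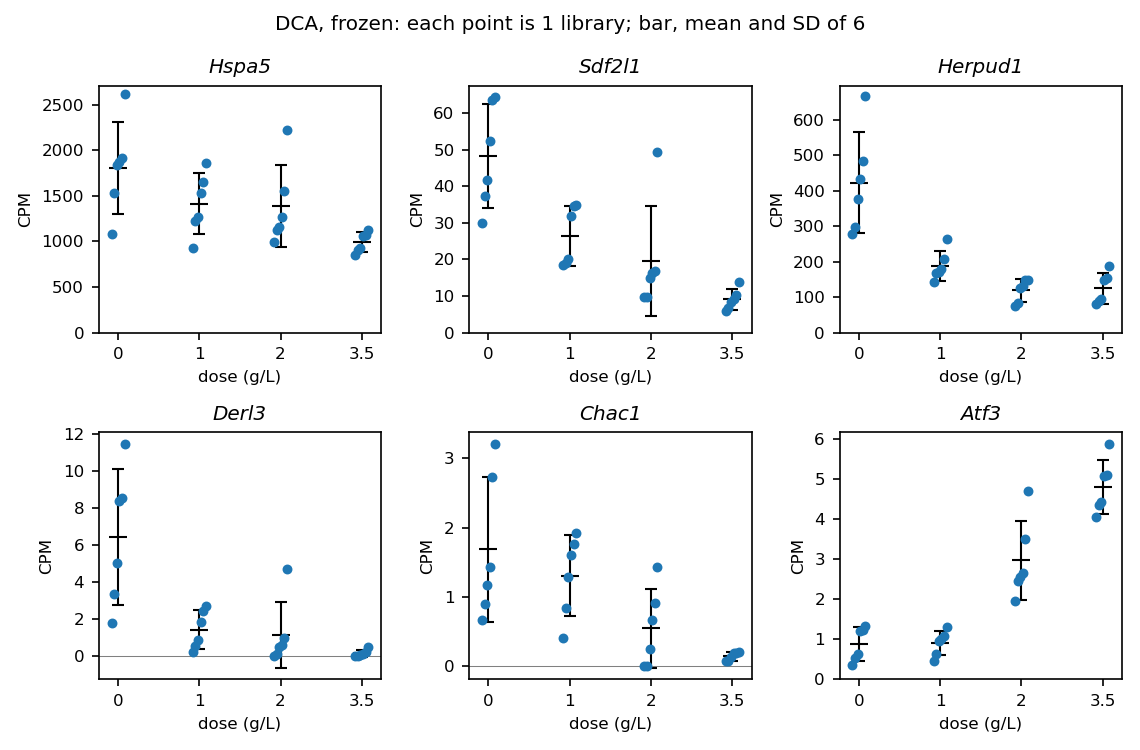
CPM of Hspa5, Sdf2l1, Herpud1, Derl3, Chac1 and Atf3 in each DCA frozen library by dose in g/L, with the mean ± SD of 6. Herpud1 is below the controls at each dose, while Sdf2l1, Derl3 and Chac1 have their lowest means and Atf3 its highest mean at 3.5 g/L.

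More members were called at each higher dose of DCA. At 1 g/L 10 members fell and none rose (25%, against 11.1% of all genes). Of all genes 7.01% fell and 4.11% rose. Herpud1 changed most among the 10 members after Derl3 (-2.14), by -1.16 ± 0.23 (edgeR adjusted p 0.00257), and Dnajb9 passed the test at this dose alone (-0.52). Counts at 1 g/L were 4 without control 3 or 6 or without treated animal 51, 53 or 54, 16 without control 7 or without animal 78 of the 2 g/L group, and 1 with the sequencing run as a term. At 2 g/L 19 were called (47.5%, against 29.2%), 18 lower (45%, against 13.7%) and Atf3 higher (1.63), where 15.5% of all genes rose. Without the 3 shallow libraries at that dose, a choice made after the data were seen, 10 stayed called. Edem1 passed the test only at 2 g/L (-0.28). A linear trend was called for 28 members (70%, against 39.3%), 25 lower (62.5%, against 18.8%) and 3 higher (7.5%, against 20.5%). Over the range from 0 to 3.5 g/L the fitted line fell by 2.32 for Sdf2l1 and by 1.71 for Herpud1 on the log2 scale, and rose by 2.69 for Atf3.

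**Figure D4:**
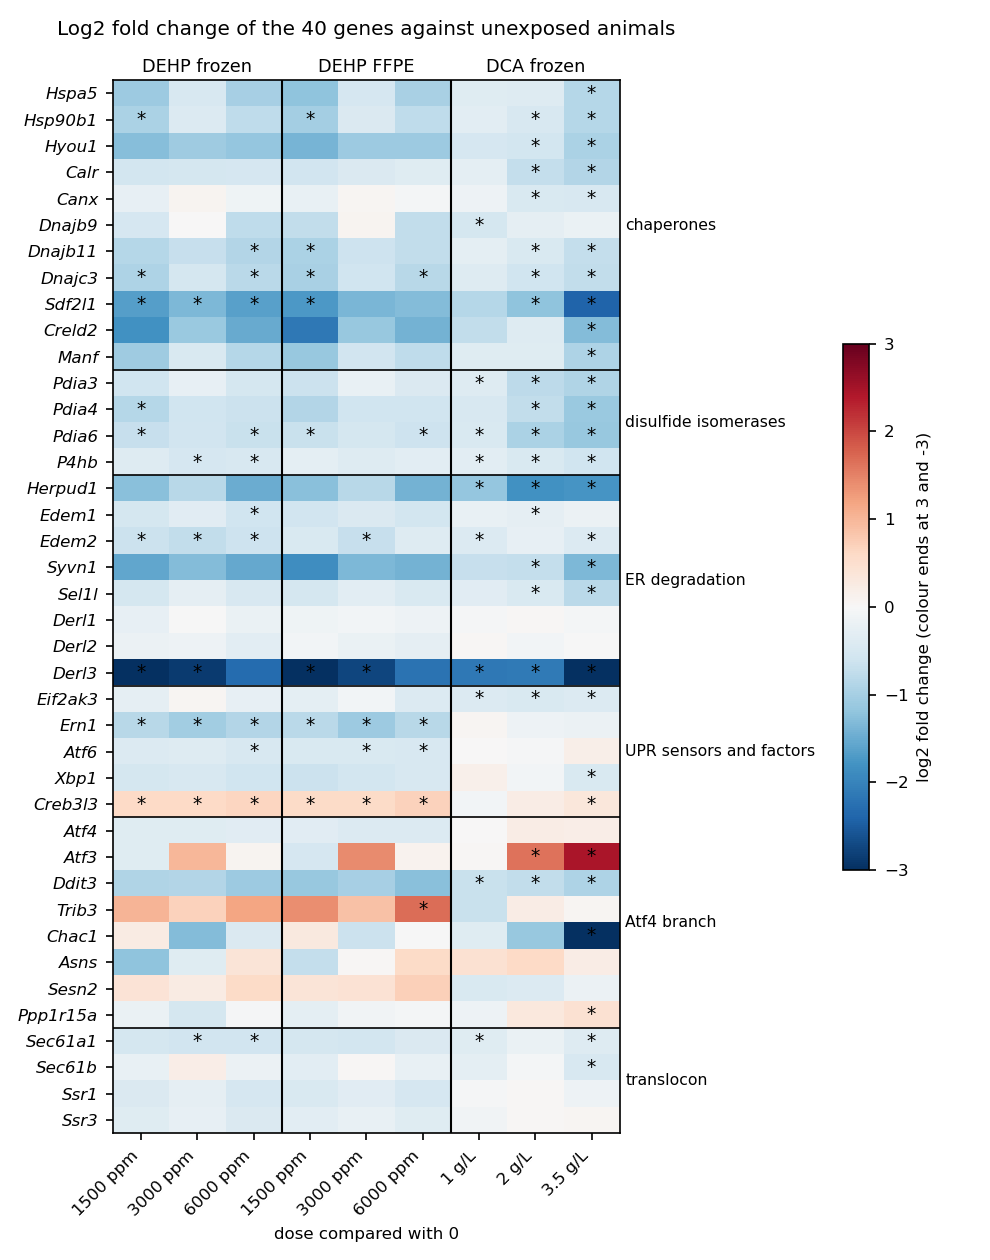
Log2 fold change against 0 for the 40 genes, in order of role, at each dose of DEHP in frozen and FFPE liver and of DCA in frozen liver. A star marks genes with an edgeR adjusted p under 0.05, of which 11, 6 and 28 stand in the columns of the top doses.

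In DCA FFPE liver no member was called. Of the 40 members 30 passed the filter on low counts, and 7 of the 8 Atf4-branch genes did not. None of these passed the test at 1 g/L (0.126% of 4772 genes), 2 g/L (0.335%) or 3.5 g/L (0.293%) or in the trend (0.356%) by edgeR. An unadjusted p under 0.05 was reached by 1, 1, 10 and 10 of them, and DESeq2 called none. Hspa5 had 154, 305 and 459 CPM in DCA FFPE controls and 90.0, 144 and 233 CPM at 3.5 g/L, where its counts summed to 303 over 6 libraries. The log2 fold change of Hspa5 was -1.09 ± 0.71 (edgeR adjusted p 0.811). Calr, Dnajb11, Creld2, Pdia6, Herpud1, Edem1, Edem2 and Sel1l, 8 of the 30, had all 6 libraries at 3.5 g/L below every control, against 4.84% of all genes tested. Above every control lay 0 members and 0.21% of all genes. Dnajb11 had 12 counts and Creld2 9 in animal 97, and 0 in the other libraries at 3.5 g/L. Totals were 182116 to 653006 there and 2167545 to 8434613 in controls, so lying below the controls cannot be told from low depth. Herpud1 had 102, 151 and 286 CPM in controls and 0, 40.5 and 88.1 CPM at 3.5 g/L, with summed counts of 3971 and 124, and a log2 fold change of -1.86 ± 0.86 (edgeR adjusted p 0.589). As given for these libraries, dose, run and depth cannot be told apart.

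Between preparations of control liver, 8 of 11 chaperones were lower in FFPE in DEHP animals and 9 of 11 in DCA animals. Of all genes tested 24.7% and 6.88% were lower. Hyou1 (0.06 and -0.42) and Sdf2l1 (0.18 and 0.07) passed the test in neither, and Dnajb9 (-0.14) not in DEHP controls. In DEHP controls, with the animal as block, 24 of 40 members differed (60%, against 49.6% of 13174 genes). In FFPE 17 were lower (42.5%, against 24.7%) and 7 higher (17.5%, against 24.9%). In DCA controls 15 of 39 differed (38.5%, against 8.26% of 11991 genes). Of these 14 were lower (35.9%, against 6.88%) and 1 higher (2.56%, against 1.38%). Hspa5 had a log2 difference, FFPE minus frozen, of -0.82 ± 0.05 in DEHP controls and -1.65 ± 0.12 in DCA controls. Hsp90b1 had -0.75 and -1.95, and Pdia3 had -0.63 and -1.84. Syvn1 went the other way in both, at 1.38 ± 0.10 and 1.21 ± 0.17. Ern1 (0.40), Derl3 (0.44), Sesn2 (0.73), Ppp1r15a (0.34), Edem1 (0.22) and Edem2 (0.18) were also higher in FFPE of DEHP controls. Without the animal as block 1 member, lower in FFPE, was called in DEHP controls. Frozen liver was of mixed lobes and FFPE sections of specified lobes, so lobe and preparation cannot be told apart. All 6 FFPE libraries of DCA controls shared a run, with totals of 2167545 to 8434613 counts. All 6 frozen ones were in another run, with totals of 14539643 to 16890024. Run and depth cannot be told apart from preparation in DCA controls either.

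The top-dose effects of DEHP and DCA in frozen liver differed for 4 of 40 members (10%, against 13.3% of 13219 genes tested). The chemicals were compared each against its own controls, and chemical, study and age of the tissue cannot be told apart. Atf3 had a log2 fold change of 0.09 under 6000 ppm DEHP and 2.44 under 3.5 g/L DCA, a difference of -2.34 ± 0.66 (edgeR adjusted p 0.0147). Chac1 had -0.44 and -3.46, a difference of 3.05 ± 0.82 (adjusted p 0.0108). Atf6 had -0.48 and 0.17, a difference of -0.64 ± 0.14 (edgeR adjusted p 0.00204). Canx had -0.13 and -0.47, a difference of 0.36 ± 0.12 (adjusted p 0.0423). For Hspa5 the difference was -0.10 ± 0.44 and for Herpud1 0.28 ± 0.50, which leaves room for differences of either sign. Leaving out DEHP control 32A gave 9 calls and leaving out treated animal 44A gave 2.

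**Figure D5:**
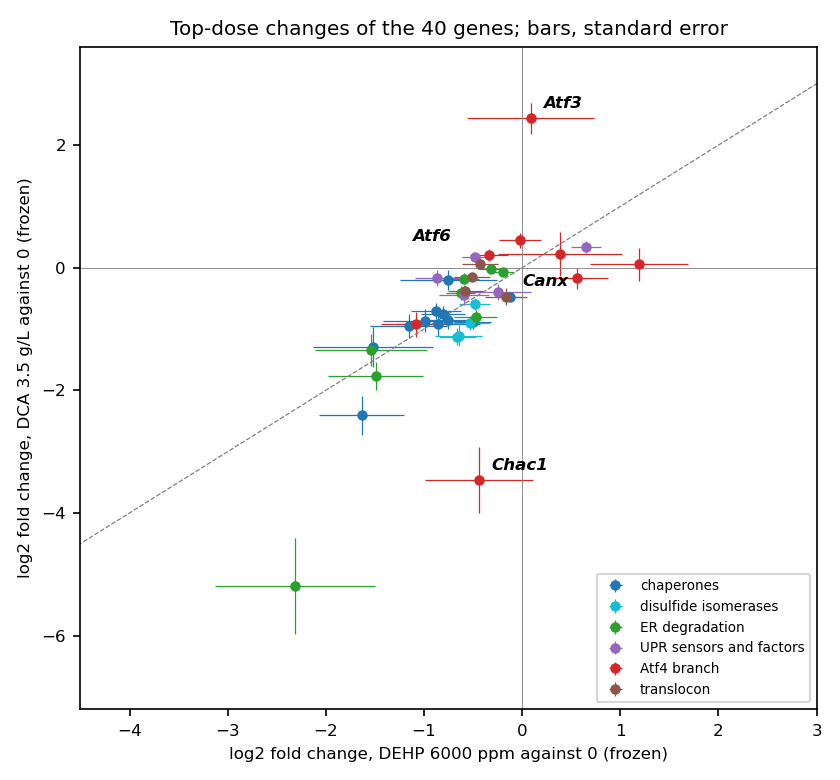
Log2 fold change of each of the 40 genes at 6000 ppm DEHP (horizontal) and 3.5 g/L DCA (vertical) in frozen liver, with SE bars and a dashed line of equal change. The 4 named genes are those whose effects differ by the test, and most others lie below 0 on both axes.

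Other genes of the secretory route and of the amino acid response were examined from lists. Of all genes tested 4.72% fell and 7.05% rose in DEHP frozen liver, 4.43% and 7.94% in DEHP FFPE, and 21.1% and 21.9% in DCA frozen liver, and a share near these is no result about a list. Of 29 further folding and degradation genes tested in DEHP frozen liver, 8 fell and none rose at 6000 ppm, among them Ppib (-0.59) and Os9 (-0.52), which encode a proline isomerase and a lectin of ER degradation. In DEHP FFPE 3 of 29 fell and none rose. In DCA frozen liver 15 of 30 fell and 2 rose at 3.5 g/L, with Os9 at -1.15 and Ppib at -0.73. Of 26 genes of ER entry, signal peptidase and oligosaccharyltransferase, 6, 5 and 11 fell in these sets and none rose, among them Tram1 at -0.66 in DEHP frozen and -0.55 in DEHP FFPE. Of 20 genes of ER exit and retrieval, 1 rose and 2 fell, 1 rose and 3 fell, and 4 rose and 6 fell. Sar1b, a GTPase of COPII vesicles, rose in all 3 sets (0.71, 0.66 and 0.70). Of other Atf4 targets, 4 of 33 rose and 1 fell in DEHP frozen, 3 of 32 rose and 1 fell in DEHP FFPE, and 8 of 31 rose and 3 fell in DCA frozen. Gars, glycyl-tRNA synthetase, rose in all 3 sets (0.41, 0.55 and 0.47), while Ddit4 (-1.96) and the amino acid transporter gene Slc7a5 (-1.23) fell under DCA.

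Markers of the cell types in these samples also moved. In frozen liver 4.72% of all genes tested fell and 7.05% rose at 6000 ppm of DEHP. At 3.5 g/L of DCA these shares were 21.1% and 21.9%. All 8 hepatocyte markers were detected in each frozen group. Of these 4 fell in DEHP frozen liver at 6000 ppm, and 5 fell and 2 rose in DCA frozen liver at 3.5 g/L. Their summed level was 66070 to 79470 CPM in DEHP controls and 47890 to 61650 at 6000 ppm, and 93920 to 115000 in DCA controls and 69210 to 90530 at 3.5 g/L. Of 11 Kupffer cell markers none was called under DEHP in frozen liver by edgeR and none had an unadjusted p under 0.05, while 9 fell under DCA, from a sum of 319 to 438 CPM to 170 to 259 CPM. Exocrine pancreas genes summed to 17.4 to 27.2 CPM in DEHP frozen controls and 9.59 to 15.1 at 6000 ppm. They summed to 15.2 to 23.4 CPM in DCA controls and 6.85 to 11.2 at 3.5 g/L, where Cpa1 and Ctrb1 of the 10 genes were at 0 in all controls. Nearly all of these sums was Cela1, at 17.4 to 27.1 CPM in DEHP controls and 14.9 to 23.03 CPM in DCA controls, so they describe that gene and not the list. Cela1 fell in both (-0.99 and -1.33), whereas the pancreatic lipase-related gene Pnliprp1 rose in DEHP frozen liver, from 2 counts over 4 controls to 54 over 4 libraries at 6000 ppm (edgeR adjusted p 0.00945). B and plasma cell markers summed to 169 to 220.5 CPM in DCA controls and 198 to 298 CPM at 3.5 g/L. Nearly all of this sum was Sdc1 in DEHP control 45C, and its part in the DCA sums is not given here. Under DCA in frozen liver 4 of 4 red blood cell markers, 7 of 10 stellate cell markers and 4 of 10 sinusoidal endothelium markers fell. The part of these cell types in the changes of the 40 genes was not tested.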

How the data were processed

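Liver RNA (100 ng per library) was sequenced after ribosomal depletion with a kit that keeps strand. Per the submitters' processing notes, CASAVA, STAR 2.4 and RSEM were used with mm10, and no order or setting is given there. The main tables hold expected counts per gene from RSEM, which the authors deposited without normalisation. They were rounded to whole numbers. A deposited FPKM table, scaled by the authors for length and depth, served for levels between genes, and a deposited table of raw counts served as an alternative.

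Each chemical and preparation was fitted with its 4 dose groups in R 4.3.3 with edgeR 4.0.16 and limma 3.58.1, by the 2-sided quasi-likelihood F test. Low counts were removed by filterByExpr at a minimum of 10, and scaling was by TMM. A call is a Benjamini-Hochberg adjusted p under 0.05 over all genes tested, and an SE is the log2 fold change divided by the square root of F. CPM are scaled with TMM. Preparations were compared with the animal as block, and the chemicals in a joint fit of the frozen libraries. Other settings were DESeq2 1.42.0, its size factors, no or a stricter filter (1 CPM), the raw count table, fits of the 2 groups compared, a 1.5-fold minimum, no replicate block, run as a term, and dropping each library in turn. The fits were tested on simulated data.

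The 40 genes, the lists and the tests were chosen with earlier results of these data known. Genes called at a top dose could be named, with library values for the smallest adjusted p of each role and always for Hspa5, Xbp1, Herpud1, Creb3l3, Atf4, Ddit3, Trib3 and Asns. From each other list at most 3 called genes were named per top dose, and where they were named in other sets this was done after their values were seen. Dnajb9, Edem1, Derl1, Derl2, Ssr1 and Ssr3 were named in the same way.

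The labels tie frozen and FFPE libraries to animals. Within a dose 13 of 16 DEHP animals correlated best with their own partner (median r 0.387 over 13445 genes), as did 13 of 24 DCA animals (median r 0.0414 over 4761 genes). Exons of 12 members overlap those of another gene, by at most 549 bases. Gene positions and overlaps are from the GENCODE annotation of GRCm38, and promoters from RefSeq.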

Additional observations from a re-analysis of the deposited data

Results flagged for a closer look

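In 140 groups of 4 to 6 libraries of the genes with values per library, 14 held a library that lay far from the rest of its group for its size. Chance marks about 1 in 20 groups in this way, and genes of 1 animal are not independent. Asns in DEHP animal 67C at 3000 ppm was high in both preparations, at 9.12 CPM in frozen liver (next 1.98) and 7.65 CPM in FFPE (next 1.51). Asns in frozen liver of animal 60A at 1500 ppm was also high, at 4.71 CPM (next 1.31). Animal 72B at 1500 ppm was low for Sec61a1 in frozen liver, at 106.9 CPM (next 135), and for Xbp1 in FFPE, at 59.9 CPM (next 90.1). Trib3 in frozen animal 71A at 3000 ppm was the lowest of a tight group at 1.79 CPM, and Herpud1 in FFPE of animal 64C at 6000 ppm was the highest of a tight group at 122.7 CPM.

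DCA animal 78 at 2 g/L was the highest of its frozen group for 4 such genes. It stood at 315 CPM for Pdia6, 49.5 for Sdf2l1, 328 for Sec61a1 and 2.74 for Ddit3. Without it 25 members were called at 2 g/L, against 19 with it. Creb3l3 in animal 49 at 1 g/L was high at 274.9 CPM, and control animal 3 was high for Trib3 at 4.53 CPM and for Asns at 11.8 CPM.

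The effects of the top doses of DEHP and DCA differed by the test of the difference for Canx (0.36 on the log2 scale), Atf6 (-0.64), Atf3 (-2.34) and Chac1 (3.05).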

How the results depend on the processing

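Counts of called members were compared for each pair of a result and another setting. They stayed within 1.5 times their value in 106 pairs and left it in 26. For fits without a library or animal, they stayed in 312 pairs and left in 54. Counts of 0 that remained 0, as in most of DCA FFPE, are among those that stayed. With the run as a term 1, 1 and 1 members were called at 1500, 3000 and 6000 ppm in DEHP frozen, 2 and 2 at 1500 and 3000 ppm in DEHP FFPE, 1 in its trend, and 1 at 1 g/L in DCA frozen. With only the 2 groups compared these were 3, 4 and 3 in DEHP frozen, 4, 2 and 2 in DEHP FFPE, and 1 at 1 g/L in DCA FFPE. DESeq2 called 16 and 11 at 1500 and 3000 ppm in DEHP frozen, and 14 at 1500 ppm, 10 at 6000 ppm and 1 in the trend in DEHP FFPE. The raw count table gave 2 at 1500 ppm in DEHP frozen. With no filter 6 were called at 1 g/L of DCA, and with a 1.5-fold minimum 3 at 1 g/L, 11 at 2 g/L and 3 at 3000 ppm in DEHP FFPE. Without the shallow libraries, chosen after the data were seen, 10 were called at 2 g/L. With no replicate block 1 was called between preparations of DEHP controls, against 24, and the replicate block changed no other count by over 1.5 times. The causes were not tested. Leaving out 1 library gave 0 to 22, 3 to 17 and 2 to 25 calls by dose and 0 to 3 for the trend in DEHP frozen, 1 to 20, 1 to 14, 2 to 19 and 0 to 2 in DEHP FFPE, 4 to 16 at 1 g/L of DCA, 0 to 1 at 3.5 g/L in DCA FFPE, and 2 to 9 between chemicals. At 3.5 g/L in DCA frozen it gave 27 to 30. Signs turned for genes that were not called. Asns at 6000 ppm in DEHP frozen had -0.0321 with the run as a term and -0.0609 to 0.86 without 1 library, and at 3.5 g/L in DCA frozen -0.0942 to 0.58. Trib3 at 3.5 g/L had -0.20 to 0.21. In DCA FFPE at 3.5 g/L Hspa5 had 0.0016 with DESeq2 size factors, and Atf4 had 0.30 with DESeq2, 0.30 with its size factors and 0.47 with the run as a term. The raw count table was not run for DCA FFPE, and its DEHP form lacks frozen library 40A. In DCA FFPE 10 of the 40 genes had too few counts to be tested.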
